A study of Mus musculus with 100 samples.

Results

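The regions described here are the p65 peaks of mouse bone marrow-derived macrophages (BMDMs) that also hold a Fosl2 peak. A p65 peak was taken when the centre of a Fosl2 peak lay within 200 bp of its own centre, which chose 25455 of 52629 p65 peaks (48.4%) and left 27174 without Fosl2. No signal level and no change with treatment entered that choice. BMDMs from wild-type C57BL/6 mice, 8 to 12 weeks old, were starved of serum for 12 h and then given Kdo2 lipid A (KLA, an agonist of TLR4) at 100 ng/ml for 6 h, or vehicle alone (Veh). ChIP-seq was carried out for p65, Fosl2, NCoR, HDAC3, PU.1, PGC1β, ERK1 and p300, with 2 libraries per group, and the p300 libraries taken as Veh are labelled as 0 h of KLA. H3K27ac was profiled in 3 further experiments, each with Veh and KLA groups of 2 libraries. In the first, the cells called WT carried NCoR flox/flox and the NKO cells carried NCoR flox/flox with LysMCre, a recombinase driven in myeloid cells. In the second, wild-type cells received DMSO with Veh or KLA, or the HDAC3 inhibitor RGFP966 with KLA. In the third, cells carried PGC1b flox/flox with or without LysMCre. PGC1β ChIP-seq was also carried out in wild-type cells given DMSO with Veh or KLA, or an ERK inhibitor (ERKi) with KLA. Neither inhibitor had a Veh group, so effects of the inhibitors without KLA were not measured. No file used here measures the deleted genes, so the deletions were not checked.

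p65 (RelA) is the transactivating subunit of NFκB. It is held in the cytoplasm by IκB proteins and enters the nucleus within minutes of TLR4 activation. Fosl2 (Fra-2) is a member of the Fos family, which pairs with Jun proteins to form AP-1 and binds the element TGAGTCA. In macrophages AP-1 factors sit at many enhancers together with PU.1, the lineage factor, and NFκB often arrives at chromatin that such factors have already opened. NCoR is a corepressor that carries the histone deacetylase HDAC3, PGC1β is a coactivator, ERK1 is a MAP kinase, and p300 is an acetyltransferase that writes H3K27ac.

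The 60 libraries held from 4.30 M to 21.5 M tags, and levels are tags normalised to a library of 10 M (tags per 10 M). The pair of Fosl2 KLA libraries stood apart from each other. Replicate 1 had 4.30 M tags with 16.4% in Fosl2 peaks, and replicate 2 had 8.55 M with 32.3%. HDAC3 KLA replicate 2 was also shallow (5.69 M) and enriched (46.5% in peaks, against 31.2 to 34.5% in the other 3 HDAC3 libraries). The 2 libraries of a group are described as biological replicates, with no statement that they came from separate mice, so p-values measure the spread between these libraries, which may be technical. Of 7 macrophage markers, 4 (Cd68, Itgam, Spi1 and Cd14) had an H3K27ac region within 2 kb of their start in the WT and NKO experiment and all 7 had one in the other 2 experiments. Of the markers of other cells reported here, Pecam1 had one in the first experiment (4.07 to 8.96 tags per 10 M) and Flt3 in the other 2, and Cd3e, Epcam, Col1a1 and Ctsk had none. Throughout, a peak was called higher or lower when its change passed edgeR's quasi-likelihood test at an adjusted p under 0.05 over all peaks of its table and was more than 2-fold, and distal peaks are those beyond 2 kb of the nearest start of transcription (TSS).

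Sequences of 6 of these peaks show the 2 elements at issue. Each is the 200 bp around the p65 centre on the plus strand of mm10, with the AP-1 element (TGAGTCA or its reverse TGACTCA) and matches to the κB consensus in capitals. The first pair holds both kinds of element, the second pair holds 2 AP-1 elements and no κB match, and in the third pair Mir3966 holds a κB match alone and Ctsk an AP-1 element alone.
Cxcl10 promoter, chr5:92348918-92349117: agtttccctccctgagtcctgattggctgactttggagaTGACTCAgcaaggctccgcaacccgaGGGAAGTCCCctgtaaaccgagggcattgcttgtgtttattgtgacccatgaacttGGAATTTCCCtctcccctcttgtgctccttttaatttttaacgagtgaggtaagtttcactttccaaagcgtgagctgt
Cxcl16 intergenic, chr11:70467930-70468129: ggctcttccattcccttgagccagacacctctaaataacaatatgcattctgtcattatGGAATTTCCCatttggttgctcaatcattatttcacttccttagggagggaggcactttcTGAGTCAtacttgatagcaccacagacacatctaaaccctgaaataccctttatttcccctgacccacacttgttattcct
Tnip1 intron, chr11:54934244-54934443: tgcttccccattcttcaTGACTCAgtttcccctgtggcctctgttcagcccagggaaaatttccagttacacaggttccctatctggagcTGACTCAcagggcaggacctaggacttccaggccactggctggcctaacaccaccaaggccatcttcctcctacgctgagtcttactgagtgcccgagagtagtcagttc
Tnfrsf11a intergenic, chr1:105864169-105864368: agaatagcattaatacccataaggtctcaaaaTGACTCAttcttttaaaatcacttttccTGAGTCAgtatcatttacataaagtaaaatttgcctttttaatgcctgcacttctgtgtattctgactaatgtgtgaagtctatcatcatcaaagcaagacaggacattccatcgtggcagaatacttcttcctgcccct
Mir3966 intergenic, chr10:97442530-97442729: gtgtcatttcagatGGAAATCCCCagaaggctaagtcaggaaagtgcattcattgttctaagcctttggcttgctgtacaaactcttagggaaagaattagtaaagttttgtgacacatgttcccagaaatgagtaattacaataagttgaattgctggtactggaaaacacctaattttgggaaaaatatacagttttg
Ctsk intergenic, chr3:95511882-95512081: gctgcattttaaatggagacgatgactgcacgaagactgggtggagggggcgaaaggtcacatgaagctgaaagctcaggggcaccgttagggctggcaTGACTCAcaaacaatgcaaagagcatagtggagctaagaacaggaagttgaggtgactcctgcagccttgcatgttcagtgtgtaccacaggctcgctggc

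The p65 and Fosl2 centres nearly coincided. The median distance between them was 21 bp, with 57.6% of these peaks within 25 bp, 84.2% within 50 bp and 97.2% within 100 bp. The relation ran mostly one way, since 25448 of 31283 Fosl2 peaks (81.3%) held a p65 centre within 200 bp. Peaks just inside the limit (150 to 200 bp, 148 peaks) had a median of 47.0 p65 tags per 10 M over all libraries and 52.9 Fosl2 tags, and peaks just outside it (200 to 250 bp, 90 peaks) had 38.4 and 47.1.

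Fosl2 was found at the strong p65 peaks. When all p65 peaks were ranked by mean p65 tags and cut into 4 bins of equal size, 12.4% of the weakest bin, 34.1% of the second, 59.0% of the third and 87.9% of the strongest held Fosl2. The classes therefore differed in p65 level, and comparisons between them are also given within bins. Peaks with Fosl2 lay farther from genes than peaks without. The median distance to the TSS was 18.0 kb against 14.4 kb, and 15.5% (95% Clopper-Pearson interval 15.1 to 15.97) against 23.7% (23.2 to 24.2) lay within 2 kb of a TSS. Introns held 45.8% and 44.5% and intergenic DNA held 41.0% and 35.7%. These intervals, and those on shares further on, cover counting error only.

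KLA raised p65 at most of these peaks. The median level of p65 was 27.1 and 30.8 tags per 10 M in the Veh libraries and 69.5 and 75.9 in the KLA libraries, and the groups did not overlap. Of the 25455 peaks, 14391 were called higher and 841 lower (56.5% and 3.30%), against 57% and 5.43% of all p65 peaks tested, so the share called higher was near the background. At peaks without Fosl2 the median was 9.63 and 11.2 in Veh and 28.7 and 31.5 in KLA, with 15590 called higher and 2018 lower. The median log2 fold change was 1.29 with Fosl2 and 1.68 without, a difference of -0.39 ± 0.044 (SD over the 4 Veh-KLA library pairs). More of the peaks without Fosl2 had been called in KLA alone (74.0% against 55.0%), and so were in the table only through the group where they were high, which limits what this difference says of the classes. As log2 ratios with a pseudocount of 1, the single pairs gave differences of -0.34 to -0.24. An exact two-sided permutation test of 2 against 2 libraries cannot go below p = 0.333, which is the value found here. Here and further on, that test compared the gap between the classes in median log2 level per library, not the difference of log2 fold changes. Under TMM scaling, which centres the change of the bulk of peaks, all p65 changes shifted by -1.22, and 6572 of these peaks were called higher and 4967 lower, so 56.95% of calls were higher in place of 94.5%.

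The order of the classes turned with p65 strength. The bins were set by mean p65 tags over the Veh and KLA libraries together, so the p65 change entered them. The order within bins is therefore a description, and the same bins were used for the other factors. In the weakest bin the median log2 fold change of p65 was 0.66 with Fosl2 and 2.06 without, in the second 0.81 and 1.65, in the third 1.06 and 1.14, and in the strongest 1.68 and 0.94. A difference between classes within one table is not touched by the library scaling. Peaks with Fosl2 were more often called in both conditions. Of them, 36.7% had been called by the authors in both conditions and 8.29% in Veh alone, against 7.72% and 18.3% of peaks without Fosl2.

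**Figure D1:**
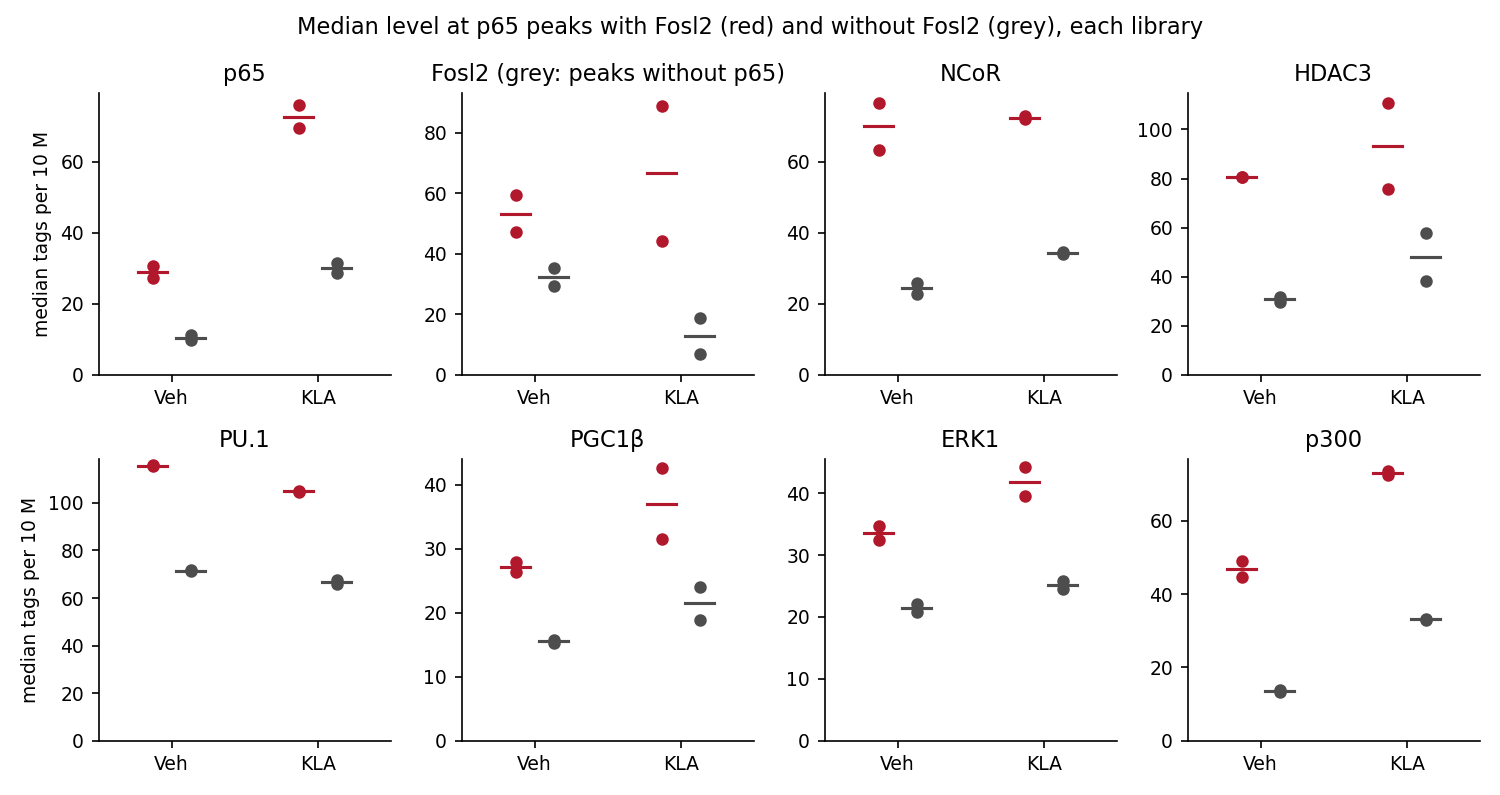
Median level (tags per 10 M, y axis) of each factor at its peaks that coincide with p65 peaks with Fosl2 (red) and without Fosl2 (grey) in each of the 2 Veh and 2 KLA libraries, with bars at the mean of 2. For Fosl2 the grey points are Fosl2 peaks without p65. Within each condition the red points lie above the grey points in every panel, and p65 rose in both classes.

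Fosl2 itself moved less and in both directions. Its median level at Fosl2 peaks with p65 was 59.2 and 47.2 tags per 10 M in Veh and 44.2 and 88.8 in KLA, so the groups overlapped. Of 25448 such peaks, 3486 rose past the call and 572 fell with KLA (13.7% and 2.25%), against 11.4% and 4.19% of all Fosl2 peaks, and the median log2 fold change was 0.11. Fosl2 peaks without p65 had lower levels in KLA, but 92.5% of them had been called by the authors in Veh alone, against 41.1% of those with p65, so most were in the table through the group where they were high and a fall was built in. Their median was 35.3 and 29.4 tags per 10 M in Veh and 6.98 and 18.7 in KLA, with 72 called higher, 738 called lower of 5835 and a median log2 fold change of -1.27. The medians differed by 1.38 ± 0.154 (SD over 4 library pairs), a value that rests on that choice of peaks and is given as a description.

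The number of Fosl2 calls rested on the unequal KLA libraries. Without KLA replicate 1, 7567 Fosl2 peaks with p65 were called higher and 1352 lower (median 0.53), and without KLA replicate 2, 4178 were higher and 6078 lower (median -0.49), in fits that take the lone KLA library to vary like the Veh libraries. Without either Veh library edgeR called 0, with 2516 and 2297 at an unadjusted p under 0.05. Which direction had more Fosl2 calls at these peaks thus depended on the KLA library kept, and TMM scaling of all 4 libraries gave 5807 higher and 1792 lower. The difference between Fosl2 peaks with and without p65 was 1.40 to 1.70 with any 1 library left out. Of Fosl2 peaks with p65, 37.6% had been called in both conditions and 21.3% in KLA alone.

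The changes of p65 and Fosl2 went together. Across the 25455 peaks the log2 fold changes had Pearson r = 0.85 and Spearman rho = 0.86, a description over peaks that are not independent and that were measured in separate libraries of the same kind of cells. With 1 Fosl2 library left out, r was 0.72 to 0.84. Of the 3487 peaks with Fosl2 called higher, 3483 also had p65 called higher (99.9%), where 56.5% of all these peaks did. With both tables fitted under TMM the share was 84.3% (4898 of 5811), where 25.8% did. Of the 572 peaks with Fosl2 called lower, 269 had p65 called lower, 296 had p65 not called and 7 had it called higher. No peak had Fosl2 called higher and p65 called lower in the edgeR fit, and 1 did under TMM. For most of the peaks that gained p65, Fosl2 did not pass the test (10901 peaks), and 9923 peaks had neither call.

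**Figure D2:**
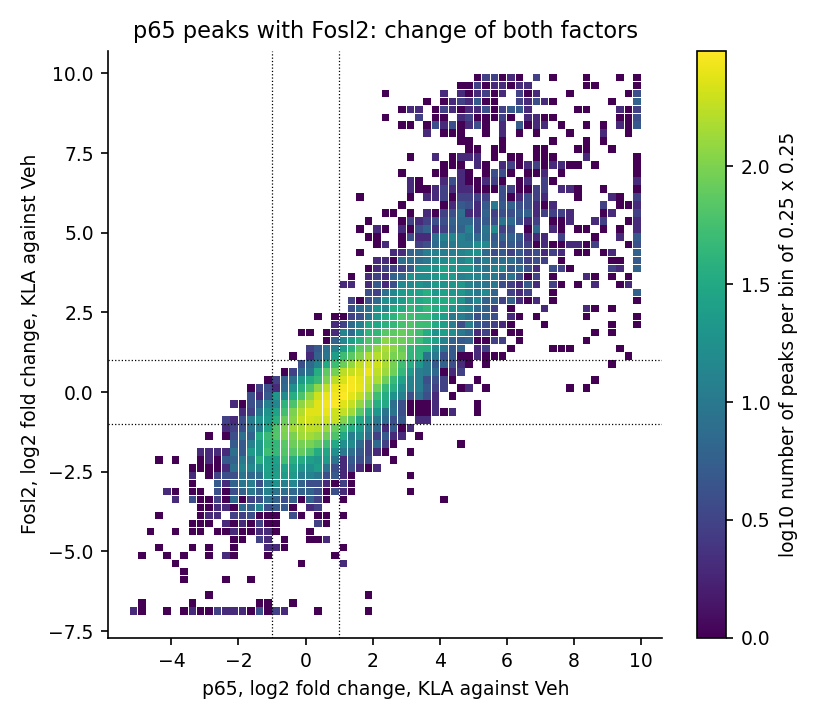
Log2 fold change with KLA of p65 (x axis) and of Fosl2 (y axis) at the 25455 p65 peaks with Fosl2, with colour for the log10 number of peaks per bin of 0.25 by 0.25 and dotted lines at 2-fold. The 90 peaks beyond an edge of -6 or 10 for p65 and -7 or 10 for Fosl2 are drawn in the outermost bins. The cloud runs along a diagonal that lies below equality, with Fosl2 near 0 where p65 rose by about 1.

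The 6 other factors were found far more often where p65 and Fosl2 met. NCoR had a peak centre within 200 bp at 93.5% of p65 peaks with Fosl2 (95% interval 93.2 to 93.8) and at 54.8% of those without (54.3 to 55.4). HDAC3, its enzymatic partner, was at 92.1% and 48.9%. The coactivator side looked alike, with p300 at 94.9% and 65.2% and PGC1β at 73.3% and 25.9%. ERK1 was at 63.9% and 18.2%, and PU.1 at 74.3% and 33.8%. All 6 factors together had a peak at 45.2% of p65 peaks with Fosl2 and 5.00% without, and 0.503% and 15.1% had none of the 6. NCoR, HDAC3 and PGC1β all had a peak at 69.5% and 17.0%.

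The gap was smaller among peaks of like p65 strength. In the strongest bin NCoR was at 98.9% with Fosl2 and 89.4% without, and all 6 factors at 65.4% and 21.4%. In the weakest bin NCoR was at 68.5% and 32.7%, and all 6 factors at 5.13% and 0.469%. For each of the 6 factors the share was higher with Fosl2 in all 4 bins. Regions counted for H3K27ac in the WT and NKO experiment were open chromatin and need not be acetylated. Of the 10922 within 500 bp of a p65 peak with Fosl2, 8920 had enough tags to be tested. Such a region lay within 500 bp of 42.7% of peaks with Fosl2 and 20.9% without. For distal peaks that was 38.8% and 9.49%, and within 2 kb of a TSS it was 64.2% and 57.7%. Unlike the factors, these regions were no more frequent with Fosl2 among strong p65 peaks. They were at 38.9% and 38.2% in the third bin and 53.7% and 57.1% in the strongest.

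**Figure D3:**
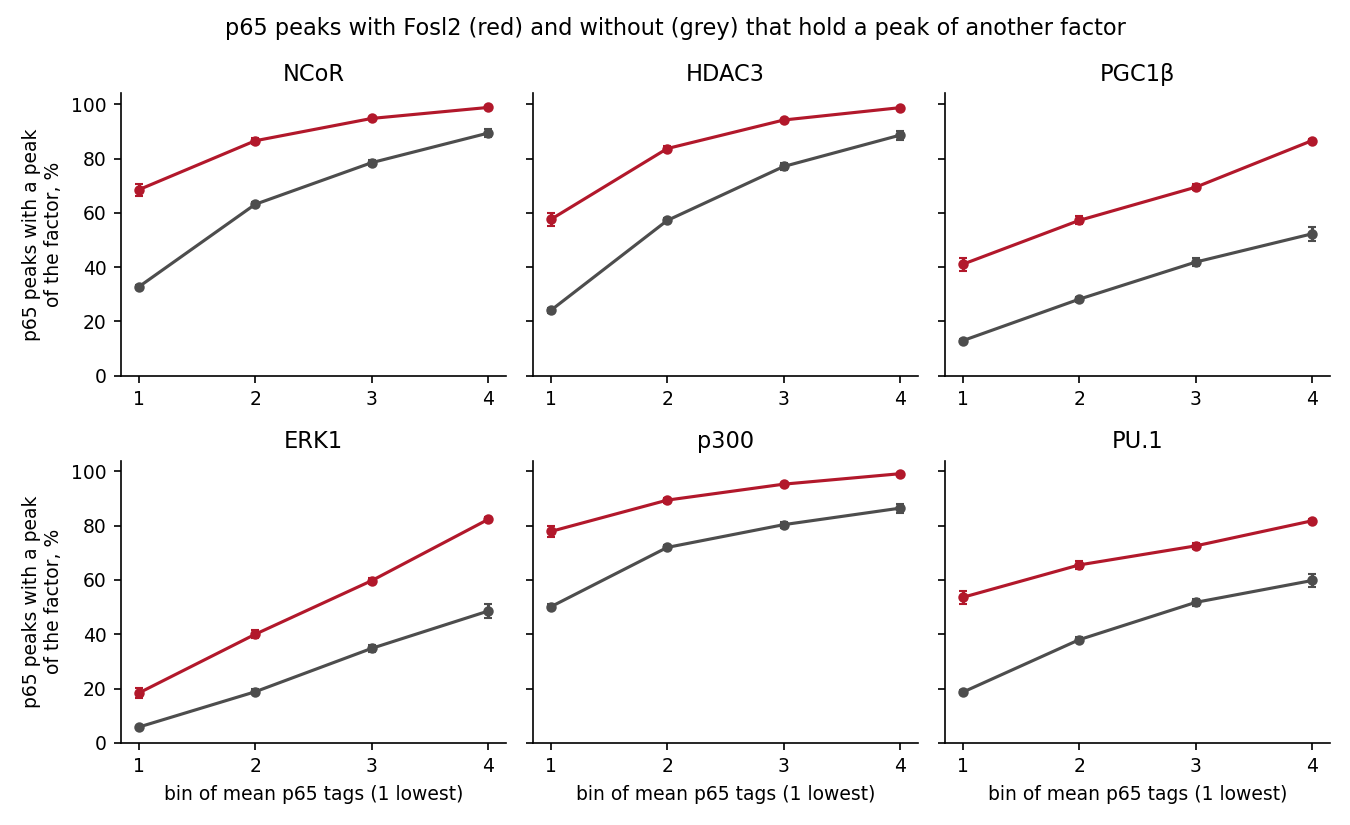
Percent of p65 peaks with Fosl2 (red) and without (grey) that hold a peak centre of each of 6 other factors within 200 bp (y axis), in bins of mean p65 tags (x axis, 1 weakest), with 95% Clopper-Pearson intervals. Red lies above grey in each bin of each panel, and for NCoR the gap narrows from 68.5% against 32.7% to 98.9% against 89.4%.

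NCoR and HDAC3 did not rise as a whole at p65 peaks with Fosl2. The median NCoR level was 63.3 and 76.5 tags per 10 M in Veh and 72.9 and 71.9 in KLA, and the groups overlapped. Of 23814 NCoR peaks there, 5186 were called higher and 3596 lower (21.8% and 15.1%, median log2 fold change 0.00), against 23.4% and 16.7% of all NCoR peaks. At p65 peaks without Fosl2, 5010 of 14900 were higher and 1267 lower (median 0.60). HDAC3 had 5625 higher and 2484 lower of 23447 with Fosl2 (median 0.14), against 27.5% and 11.3% of all HDAC3 peaks, and 5248 and 743 of 13294 without (median 0.71). The difference of medians was -0.60 ± 0.026 for NCoR and -0.57 ± 0.054 for HDAC3 (SD over 4 library pairs, exact permutation p = 0.333 for each). It shrank with p65 strength, from -1.46 in the weakest to -0.14 in the strongest bin for NCoR and from -1.55 to -0.05 for HDAC3. More of the p65 peaks without Fosl2 had been called in KLA alone (74.0% against 55.0%). That limits what these differences, and those of the factors below, say of the classes. Under TMM the HDAC3 median with Fosl2 was -0.13, with 4626 higher and 3857 lower.

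Over all their peaks, the median changes of PGC1β and ERK1 were above 0 in both classes. PGC1β was called higher at 4797 and lower at 928 of 18656 peaks with Fosl2 (median 0.37), against 16.4% and 6.35% of all PGC1β peaks, and at 1651 and 280 of 7016 without (median 0.32). Its 25.7% called higher with Fosl2 stood beside 23.5% without, and the difference of medians was 0.05 ± 0.054 (exact permutation p = 1). In the separate DMSO libraries 5372 of 21463 PGC1β peaks with Fosl2 were higher and 213 lower (median 0.65), against 16.4% and 1.23% of that table, and TMM gave 3086 and 613. Without Fosl2, 2008 of 9629 were higher and 64 lower there (median 0.79), a difference of -0.13, so the sign of the small difference was not the same in the 2 PGC1β experiments. ERK1 was called higher at 1920 and lower at 310 of 16259 peaks with Fosl2 (median 0.32), against 10.3% and 2.53% of all ERK1 peaks, and at 483 and 69 of 4933 without (median 0.36), a difference of -0.05 ± 0.040, and TMM gave 1507 higher and 532 lower with Fosl2. For distal peaks the difference was -0.16 for PGC1β and -0.43 for ERK1. It turned with p65 strength, from -0.65 in the weakest to 0.24 in the strongest bin for PGC1β and from -1.37 to 0.19 for ERK1, and in the weakest bin the medians with Fosl2 were -0.38 and -0.42.

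The median rise of p300 was larger where Fosl2 was absent, and PU.1 differed little between the classes. p300 was higher at 9230 and lower at 2203 of 24167 peaks with Fosl2 (median 0.56), against 42.1% and 12.9% of all p300 peaks, and at 9708 and 1183 of 17717 without (median 1.35). The difference was -0.79 ± 0.035 over all bins but turned with p65 strength, from -1.85 in the weakest bin to 0.50 in the strongest. The p65 peaks without Fosl2 were more often called in KLA alone, which limits what this difference says of the classes. PU.1 was called higher at 1545 and lower at 2374 of 18956 peaks with Fosl2 (median -0.23), against 4.53% and 21.7% of all PU.1 peaks, so PU.1 losses were fewer here than over its whole table. The same was so without Fosl2 (506 and 1147 of 9193, median -0.26), and the classes differed by 0.02 ± 0.016. The direction of PU.1 depended on scaling, with 2745 higher and 948 lower under TMM. For p300, TMM gave 6688 higher and 4811 lower.

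Sorted by what p65 and Fosl2 did, the same peaks gave ordered changes of all other factors, whose libraries took no part in the sorting. Where both were called higher (3483 peaks), NCoR had a median log2 fold change of 2.70, HDAC3 2.79, PGC1β 2.78, ERK1 2.54 and p300 3.64. NCoR was called higher at 2919 of the 3209 tested there and lower at 0. The corepressor pair thus gained signal where peaks that gained p65 and Fosl2 also held its own peak (NCoR at 92.2%). Peaks of the other factors that had been called in a single condition were not set apart, which limits what the order of the groups says. Where p65 was called higher and Fosl2 was not called (10901 peaks) the medians were 0.33, 0.45, 0.71, 0.61 and 0.99. Fosl2 may have changed in that group, since only 2% of 3-fold Fosl2 changes were recovered in simulated counts. Where neither was called (9923 peaks) they were -0.60, -0.42, -0.20, -0.25 and -0.31, with NCoR lower at 2531 of 9149. Where both were lower (269 peaks) they were -2.40, -2.25, -1.75, -1.73 and -2.20.

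PU.1 and H3K27ac followed the same order from a different starting point. PU.1 changed by medians of 1.68, 0.08, -0.55 and -1.86 in these 4 groups, but just 35.6% of the peaks that gained both factors held a PU.1 peak, against 77.0%, 84.7% and 81.4% in the other 3. H3K27ac in WT cells changed by 1.19, 0.31, -0.02 and -0.67. A region counted for H3K27ac lay at 21.4% of peaks that gained both and 41.4% of those with p65 higher and Fosl2 not called. It lay at 51.1% of those with neither call. These are shares with a counted open chromatin region, not shares of acetylated peaks. The DMSO experiment gave H3K27ac medians of 1.59, 0.08, -0.82 and -2.04 and the PGC1b flox/flox cells gave 1.30, 0.01, -0.66 and -1.59. Each set of 4 falls from peaks that gained both factors to peaks that lost both.

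**Figure D4:**
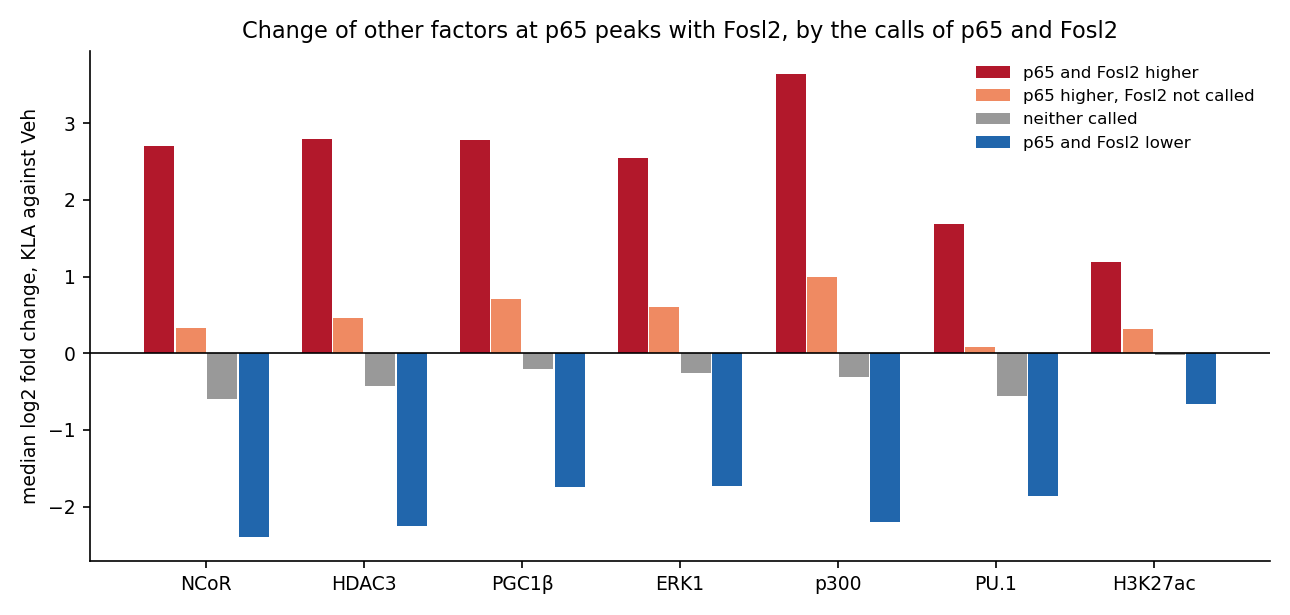
Median log2 fold change with KLA (y axis) of NCoR, HDAC3, PGC1β, ERK1, p300, PU.1 and H3K27ac (WT cells) at p65 peaks with Fosl2, in 4 groups by the calls of p65 and Fosl2. For each readout the bars fall from the 3483 peaks where both were higher to the 269 where both were lower, from 2.70 to -2.40 for NCoR.

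H3K27ac as a whole changed little with KLA at these peaks in WT cells. Of 10922 regions within 500 bp of a p65 peak with Fosl2, 8920 had enough tags to be tested, and 764 of them were called higher and 374 lower (8.57% and 4.19%, median 0.14), against 6.49% and 3.72% of all regions. Regions at p65 peaks without Fosl2 had 260 higher and 123 lower of 4324 (median 0.21), a difference of -0.07 ± 0.043 (exact permutation p = 0.667). The other experiments gave more losses than gains. With DMSO 1051 were higher and 3520 lower of 11367 (median -0.45), against 6.73% and 28.1% of all regions, and in PGC1b flox/flox cells 870 were higher and 2908 lower of 11298 (median -0.41), against 5.22% and 25.6%. Under TMM scaling the excess of losses was smaller, with 1802 higher and 2237 lower with DMSO and 1578 and 1596 in PGC1b flox/flox cells, and in WT cells it gave 590 and 512. The share of tags in regions fell from 30.6 and 31.5% in the DMSO Veh libraries to 22.9 and 27.9% in the KLA libraries, and its part in the result was not tested.

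NKO cells differed from WT cells at few regions. With KLA, 42 were higher and 52 lower in NKO than in WT of 8920 (0.471% and 0.583%, median -0.07), against 0.4% and 0.389% of all regions. The median was -0.13 where p65 and Fosl2 were both higher (558 regions tested). It was -0.06 where p65 was higher and Fosl2 not called, -0.07 where neither was called and 0.005 where both were lower.

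With RGFP966, the HDAC3 inhibitor, the median change of H3K27ac was positive at distal peaks of both classes. Of 11367 regions at p65 peaks with Fosl2, 3754 were higher and 421 lower with RGFP966 and KLA than with DMSO and KLA (median 0.63), against 26.9% and 9.53% of all regions, and at peaks without Fosl2 1021 were higher and 849 lower of 5428 (median -0.09). The difference of 0.72 ± 0.034 was not seen among distal peaks. For distal peaks the medians were 0.81 with Fosl2 and 0.84 without, a difference of -0.03, and within 2 kb of a TSS they were -0.41 and -0.67, in the same order as overall. Distal peaks with Fosl2 had 3491 regions higher and 26 lower, and those within 2 kb had 263 higher and 395 lower. Under TMM all RGFP966 changes shifted by -0.34, with 2243 regions higher and 1051 lower at peaks with Fosl2.

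The change with RGFP966 differed with the calls of p65 and Fosl2, and its median was negative where KLA had raised both. The median was -0.18 at peaks that gained both (25 regions higher and 14 lower of 318). It was 0.56 where p65 was called higher and Fosl2 not called (1246 and 48 of 4420). Where neither was called it was 0.72 (2138 and 285 of 5795), and where both were lower 1.12 (76 and 3 of 141). KLA with DMSO had changed H3K27ac at the same 4 groups by 1.59, 0.08, -0.82 and -2.04, and the 2 comparisons share the DMSO and KLA libraries.

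H3K27ac was lower with LysMCre in PGC1b flox/flox cells when scaled by library totals. With KLA, 53 regions were higher and 1190 lower of 11298 at peaks with Fosl2 (median -0.47), against 0.702% and 6.81% of all regions, and 21 and 238 of 5358 at peaks without (median -0.34). Under TMM, which shifted these changes by 0.39, 159 were higher and 210 lower. The difference between the classes, -0.12 ± 0.013, does not depend on it, and it was -0.19 for distal regions. By group the medians were -0.49, -0.48, -0.47 and -0.43, close to each other across the 4 groups. ERKi changed PGC1β at few peaks, with 10 higher and 65 lower of 21463 (median -0.24), against 0.108% and 0.178% of all PGC1β peaks, and 24 higher and 31 lower under TMM.

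The AP-1 element was present in a minority of these peaks. TGAGTCA was sought on either strand in a window 200 bp wide around the p65 centre. It was found in 23.2% of p65 peaks with Fosl2 (95% interval 22.7 to 23.7), 11.2% of those without (10.8 to 11.6) and 17.0% of all p65 peaks. The κB consensus went the other way, with 6.36%, 8.78% and 7.61%. PU.1 (GAGGAAGT) was in 11.5% and 7.72% and C/EBP (TTGCNNAA) in 17.9% and 16.02%, while the cyclic AMP response element (TGACGTCA) was in 0.746% and 0.740%. GAAA followed by 2 bases of any kind and GAAA, as in elements of interferon factors, was in 5.42% and 6.31%. AP-1 and κB elements together were in 1.28% and 0.729%. Matches of different motifs may overlap, median GC content was 46.5% and 46%, and a match is a description of letters, not a bound site.

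Elements also differed between peaks by what p65 and Fosl2 did. The κB consensus was in 16.3% of peaks that gained both factors and 6.68% of those with p65 higher and Fosl2 not called. It was in 3.05% of those with neither call and 0.372% (1 of 269) of those that lost both. AP-1 was in 23.5%, 27.6%, 19.9% and 7.43%, and the PU.1 element in 5.37%, 11.6%, 13.6% and 10.4%. In the strongest bin of p65 peaks AP-1 was in 22.3% with Fosl2 and 4.01% without, and the κB consensus in 10.4% and 15.2%. Among the peaks printed above, Cxcl10 and Mir3966 gained both factors and hold κB matches, Tnfrsf11a gained both and holds 2 AP-1 elements and no κB match, and Ctsk holds AP-1 and neither factor was called there. Tnip1 and Cxcl16 gained p65, and Fosl2 did not pass the test at either.

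Peaks were also counted by nearest gene, in lists chosen with earlier results of these data known. Fosl2 was at 49.4% of the p65 peaks of inflammatory cytokine genes, against 48.4% of all p65 peaks. The share was 59.3% for chemokine, 56.5% for NFκB and 58.3% for induced enzyme genes. It was 59.3% for AP-1 and ATF genes, 69.7% for osteoclast genes and 50.7% for LXR targets. Inflammatory cytokine genes had 81 peaks with Fosl2, of which p65 was higher at 76 and Fosl2 at 41. Chemokine genes had 67, with p65 higher at 62 and Fosl2 at 25, and genes of NFκB subunits and feedback had 126, with 117 and 56. Genes of induced enzymes and secreted effectors had 81, with 71 and 32. In these 4 lists p65 and Fosl2 were lower at 0 peaks in the edgeR fit, and each peak with Fosl2 higher also had p65 higher. Over all peaks with Fosl2 the shares were 56.5% for p65 and 13.7% for Fosl2. Peaks of the same lists without Fosl2 also gained p65, at 74 of 83 for cytokine, 43 of 46 for chemokine, 81 of 97 for NFκB and 51 of 58 for enzyme genes, and no test compared these shares with those of peaks with Fosl2. The other 3 lists held both directions. AP-1 and ATF factor genes had 73 peaks with p65 higher at 42 and lower at 4 and Fosl2 higher at 14 and lower at 1, osteoclast genes had 46 with 20 and 5 and with 5 and 5, and LXR target genes had 35 with 20 and 0 and with 1 and 1. Ccl22, Cxcl3, Cxcl9, Jund, Hp, Lcn2 and Srebf1 had p65 peaks but none with Fosl2.

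Among cytokine genes, the intergenic peak at -56919 bp from the TSS of Il12a (chr3:68633622-68633828), which encodes a subunit of IL-12, went from near 0 to a high level. p65 was 4.38 and 5.59 tags per 10 M in Veh and 318 and 342 in KLA (log2 fold change 6.03 ± 0.31 SE, adjusted p = 6.4e-07, edgeR), and Fosl2 was 12.7 and 32.5 in Veh and 254 and 350 in KLA (3.71 ± 0.78, adjusted p = 7.8e-05). Both factors' groups stood far apart there, and NCoR (2.56 ± 0.32), HDAC3 (2.76 ± 0.39) and p300 (4.34 ± 0.22) rose as well. At the peak at -2364 bp from Il1b (chr2:129373355-129373652), the interleukin 1β gene, which lies in an intron of a non-coding transcript, both factors were present before KLA. p65 was 98.9 and 111 in Veh and 540 and 532 in KLA, whereas Fosl2 was 327 and 218 in Veh and 235 and 642 in KLA (0.69 ± 0.66, adjusted p = 0.54). There NCoR was high in all 4 libraries (232, 204, 215 and 212, log2 fold change -0.03 ± 0.18). The Tnf promoter likewise gained p65 (1.90 ± 0.20), with Fosl2 at 117 and 79.7 in Veh and 128 and 229 in KLA.

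A second peak whose nearest gene was Il6, interleukin 6, at -132802 bp (chr5:29880200-29880425), had 1.75 and 0.932 p65 tags in Veh and 486 and 482 in KLA. Fosl2 was 0 and 0 in Veh and 426 and 729 in KLA, at least 157-fold higher against a floor of 3 counts per library, and NCoR was 0 and 0 in Veh and 161 and 139 in KLA, at least 42.2-fold higher. The Il6 peak at -64741 bp (chr5:29948248-29948498), by contrast, held NCoR at 464 and 557 in Veh and 648 and 569 in KLA (0.25 ± 0.17), while p65 rose by 3.52 ± 0.25 there. NCoR was thus in place before KLA at one of these peaks, and at the other no NCoR tag was counted before it.

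At 3 named peaks of chemokine genes Fosl2 was counted in Veh already. At Cxcl10, an interferon-induced chemokine, p65 was 59.5 and 38.2 in Veh and 436 and 487 in KLA, and Fosl2 was 59.2 and 33.6 in Veh and 261 and 312 in KLA (2.63 ± 0.74, adjusted p = 0.0048). At the Ccl3 promoter Fosl2 was 364 and 254 in Veh and 368 and 768 in KLA (0.88 ± 0.65, adjusted p = 0.40) and NCoR was 440 and 585 in Veh and 445 and 479 in KLA (-0.15 ± 0.18). At Cxcl16 p65 went from 155 and 237 to 582 and 638, with Fosl2 at 300.5 and 199 in Veh and 338 and 669 in KLA. p65 groups were separate at all 3 genes and Fosl2 groups at all 3, but the Fosl2 change passed the test at Cxcl10 alone.

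The peaks of 2 NFκB feedback genes lay at their promoters. Nfkbia encodes IκBα, which returns p65 to the cytoplasm, and Tnfaip3 encodes A20, which switches off the signal upstream. At Nfkbia p65 was 179 and 207 in Veh and 610 and 681 in KLA and Fosl2 was 86.0 and 70.3 in Veh and 270 and 634 in KLA (2.54 ± 0.71, adjusted p = 0.0044). At Tnfaip3 p65 was 157 and 158 in Veh and 627 and 688 in KLA and Fosl2 was 172 and 124 in Veh and 356 and 783 in KLA (1.95 ± 0.68, adjusted p = 0.031). H3K27ac beside Nfkbia fell from 113 and 109 to 42.1 and 64.8 in WT cells (-1.06 ± 0.23) while p300 at the same peak rose (1.72 ± 0.18). In the DMSO experiment H3K27ac there was 331 and 351 in Veh and 488 and 413 in KLA, so the fall was not seen in those libraries.

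Genes of induced enzymes gained both factors at several peaks. The Ptgs2 (cyclooxygenase 2) promoter, at -42 bp (chr1:150099870-150100109), had p65 at 14.0 and 28.0 in Veh and 214 and 249 in KLA (3.47 ± 0.31). H3K27ac there was 5.04 and 4.58 in Veh and 28.3 and 28.3 in KLA (2.54 ± 0.55). The Fosl2 peak there had been called by the authors in both conditions, and its change is not given here. At Cp, ceruloplasmin, in the intergenic peak at -2895 bp (chr3:19954050-19954269), p65 was 25.4 and 30.8 in Veh and 421 and 452 in KLA and Fosl2 was 23.98 and 3.15 in Veh and 144 and 338 in KLA (4.20 ± 0.85, adjusted p = 3.1e-05). Acod1 makes itaconate and Sod2 is the mitochondrial superoxide dismutase. The Acod1 promoter gained p65 (28.0 and 28.0 to 566 and 605), Fosl2 (15.5 and 7.34 to 90.8 and 402) and NCoR (16.7 and 15.3 to 238 and 251). The Sod2 intron had Fosl2 at 59.2 and 37.7 in Veh and 466 and 734 in KLA (3.63 ± 0.74). At Ptges, which encodes prostaglandin E synthase, Fosl2 was 9.87 and 4.19 in Veh and 298 and 555 in KLA (5.94 ± 0.88).

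**Figure D5:**
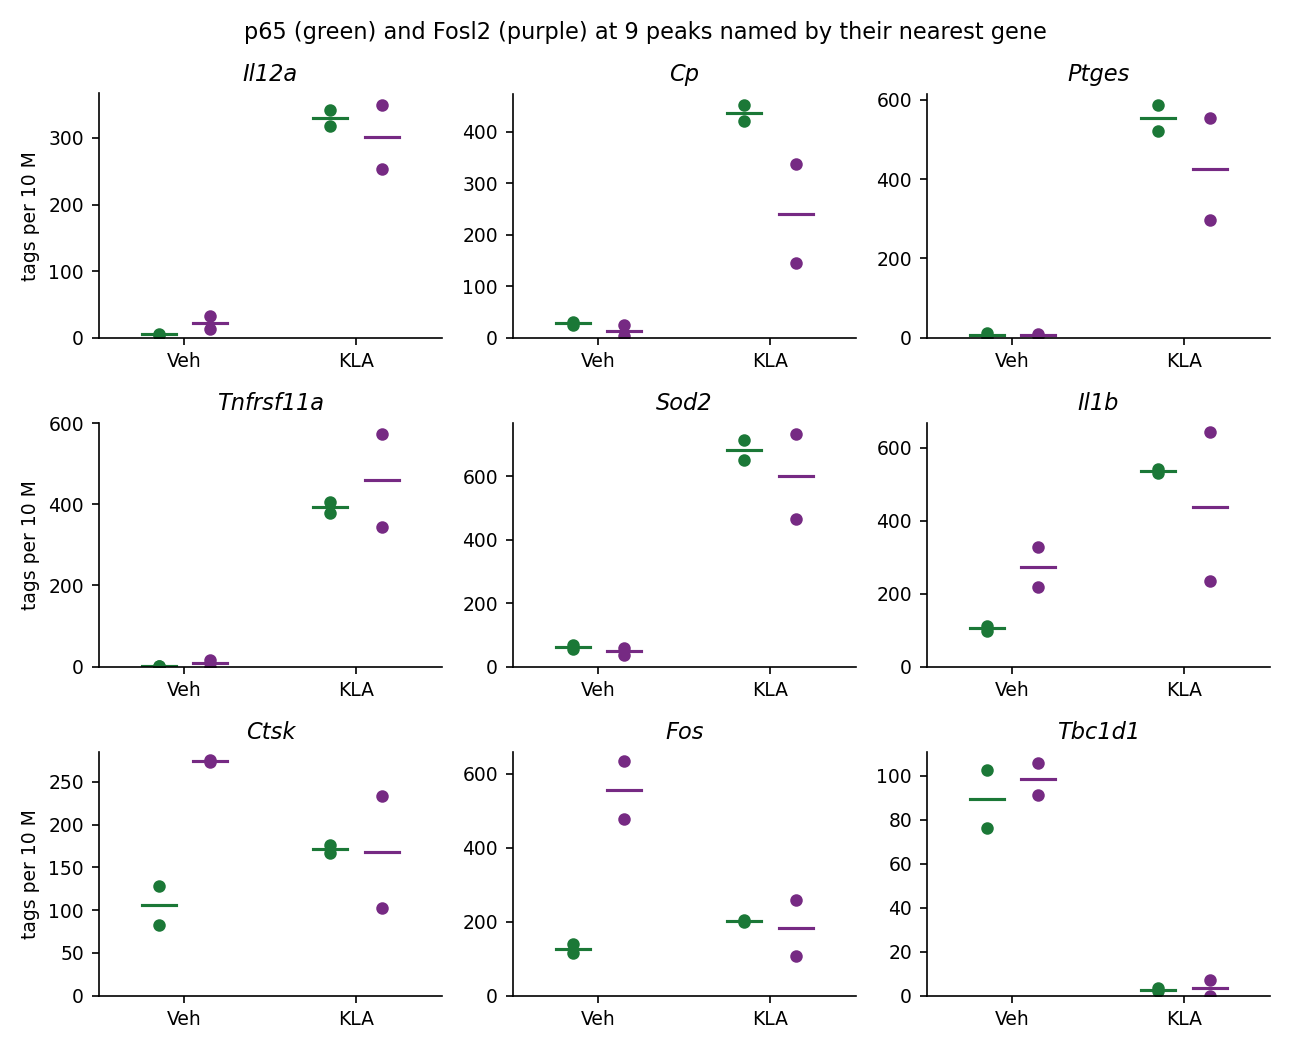
p65 (green) and Fosl2 (purple) in tags per 10 M (y axis, from 0) in each of the 2 Veh and 2 KLA libraries at 9 peaks named by their nearest gene, with bars at the mean of 2. At Il12a, Cp, Ptges, Tnfrsf11a and Sod2 both factors rose, at Il1b the Fosl2 libraries overlapped (327 and 218 in Veh, 235 and 642 in KLA), and at Tbc1d1 both fell.

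The peaks described at genes of AP-1 factors, the family of Fosl2 itself, did not change alike. The peak at -5066 bp from Fos (chr12:85468710-85468938) had Fosl2 at 633 and 477 in Veh and 107 and 259.5 in KLA (-1.59 ± 0.67, adjusted p = 0.093), separate groups that missed the test, and p65 at 115 and 139 in Veh and 198 and 205 in KLA (0.67 ± 0.21, under 2-fold, and -0.55 under TMM). The peak near Batf gained p65 (63.9 and 55.9 to 506 and 586) and Fosl2 (127 and 73.4 to 247 and 479, adjusted p = 0.047), with p300 rising by 2.71 ± 0.14. At Junb p65 rose by 1.86 ± 0.19 and Fosl2 was 133 and 127 in Veh and 97.8 and 244 in KLA.

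Osteoclast genes split. Tnfrsf11a encodes RANK, the receptor for the osteoclast factor RANKL, and Ctsk encodes cathepsin K, the collagenase of osteoclasts. The intergenic peak at 83546 bp from Tnfrsf11a (chr1:105864169-105864369) had p65 at 2.63 and 1.86 in Veh and 407 and 380 in KLA (7.38 ± 0.34) and Fosl2 at 0 and 16.8 in Veh and 344 and 573 in KLA (5.66 ± 0.85, adjusted p = 2.0e-08). NCoR there went from 1.19 and 7.06 to 123 and 111. The Ctsk peak held Fosl2 at 274 and 276 in Veh and 102 and 234 in KLA (-0.70 ± 0.68, adjusted p = 0.55), and neither p65 (83.2 and 129 to 167 and 176) nor NCoR (129 and 197 to 137 and 139) was called. H3K27ac beside Ctsk fell with KLA in the DMSO libraries (414 and 474 to 189 and 130, -1.47 ± 0.20), and in WT cells it went from 13.9 and 19.9 to 13.2 and 15.2 (-0.26 ± 0.49, not called). Among LXR targets, Abca1 encodes a cholesterol exporter and Nr1h3 encodes LXRα. p65 rose at both (1.81 ± 0.20 and 2.73 ± 0.21) and Fosl2 did not pass the test at either (0.24 ± 0.69 and 0.43 ± 0.67). H3K27ac beside Nr1h3 with KLA was 280 and 286 in PGC1b flox/flox cells and 89.6 and 98.3 with LysMCre (-1.59 ± 0.12, adjusted p = 2.6e-34).

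The lowest p-values for gains fell at intergenic peaks far from genes. Near Mir3966 (chr10:97442507-97442754) p65 was 2.63 and 1.86 in Veh and 594 and 610 in KLA, Fosl2 was 5.64 and 0 in Veh and 584 and 802 in KLA, and NCoR was 0 and 0 in Veh and 91.5 and 87.2 in KLA, at least 25.1-fold higher. Near 1700016G22Rik p65 was 3.50 and 5.59 in Veh and 656 and 643 in KLA, and NCoR was 3.58 and 7.06 in Veh and 327 and 358 in KLA. Near Mir101b Fosl2 was 0 and 0 in Veh and 284 and 526 in KLA, at least 110-fold higher. All of these were called by the authors in KLA alone.

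Losses ran through the same set of factors. At Tbc1d1, in an intron (chr5:64337092-64337416), p65 was 76.2 and 103 in Veh and 3.34 and 2.05 in KLA (-5.00 ± 0.49), Fosl2 was 106 and 91.2 in Veh and 6.98 and 0 in KLA (-5.12 ± 1.13), and NCoR was 88.4 and 115 in Veh and 6.48 and 4.15 in KLA (-4.25 ± 0.42). The peaks near Gm11747 and Zfyve28 lost p65 by -3.81 ± 0.40 and -3.47 ± 0.38. The lowest p-values for lower Fosl2 were near 1700027F06Rik (258 and 159 in Veh, 0 and 2.34 in KLA), Gmpr (79.0 and 65.01 in Veh, 0 and 0 in KLA, at least 13.7-fold lower) and Mbp (123 and 83.9 in Veh, 0 and 2.34 in KLA). HDAC3 and p300 were called lower at all 6 of these peaks.

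For H3K27ac in WT cells, the lowest p-values for gains were beside Ehd1, Mir155hg and Tor1b. Mir155hg hosts miR-155, a microRNA induced by TLR signals. Beside it H3K27ac was 7.57 and 5.60 in Veh and 136 and 135 in KLA (4.37 ± 0.30) and p65 was 2.63 and 2.80 in Veh and 340 and 392 in KLA. Beside Ehd1, an endosomal protein gene, H3K27ac was 5.04 and 2.55 in Veh and 133 and 185 in KLA (5.40 ± 0.34), and Fosl2 was 9.87 and 14.7 in Veh and 179 and 284 in KLA. The lowest p-values for losses were beside Lamp1, Tnfrsf1b and 1110046J04Rik. H3K27ac beside Lamp1, a lysosomal membrane protein gene, was 102 and 114 in Veh and 19.5 and 15.9 in KLA (-2.60 ± 0.27) although p65 (71.8 and 69.0 in Veh, 102 and 123 in KLA) and Fosl2 (66.3 and 48.2 in Veh, 39.6 and 111 in KLA) were not called. At 1110046J04Rik p65, NCoR, HDAC3 and p300 fell with H3K27ac, which was 96.5 and 79.5 in Veh and 13.8 and 3.45 in KLA. With RGFP966 and KLA it was 128 and 89.4 there, against 44.7 and 26.9 with DMSO and KLA and 271 and 283 with DMSO alone.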

How the data were processed

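ChIP-seq tag counts of 60 libraries in 30 groups, from 12 tables, were used. The other samples in the labels, inputs included, were not analysed here. The authors aligned reads to mm10 with Bowtie2, called peaks with HOMER and IDR, merged them over the groups of a table and counted tags per peak with at most 3 per position, and the deposited counts are raw. Versions of these tools are not given in the sources used here. Factors were fixed with DSG and formaldehyde, H3K27ac with formaldehyde. H3K27ac was counted by the authors in open chromatin regions for WT and NKO cells and in windows of 1000 bp otherwise.

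Counts were tested with edgeR 4.0.16 (R 4.3.3) quasi-likelihood, each table fitted with all its groups and without covariates. Comparisons from the same table thus shared an estimate of the spread. Library totals from the file headers were the library sizes, with Benjamini-Hochberg adjustment over all peaks of a table. Peaks with at least 4 tags (H3K27ac, 16) in 1 library were tested, and all p65 peaks passed. Factor peaks were matched by centres within 200 bp, H3K27ac regions within 500 bp. A difference between classes is that of their median log2 fold changes in edgeR. Its SD is over the 4 Veh-KLA library pairs, as log2 ratios with a pseudocount of 1, whose range need not hold the printed difference. The exact two-sided permutation test over libraries used another statistic, the gap between the classes in median log2 level. That statistic was -0.15 for p65. Its sign was opposite to that of the printed difference for PU.1 (-0.042), PGC1β (-0.013) and ERK1 (0.089). Medians and shares used Python 3.11.15, numpy 2.4.6, pandas 2.3.3, scipy 1.17.1 and matplotlib 3.10.9. Same-numbered libraries did not deviate together (r from -0.027 to 0.026). In simulated counts 200 peaks were changed 3-fold. Of these, 47.5% were recovered for p65 (52629 peaks), 2% for Fosl2 (31281) and 60% for H3K27ac in WT cells (17554). False calls numbered 13 for p65, 0 for Fosl2 and 5 for H3K27ac. A Fosl2 peak that was not called may thus have changed, and some p65 calls may be false.

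Peaks were named by a rule. It took Ptgs2, Cp, Il12a and up to 4 genes per list with the most p65 tags, each by its strongest peak, and the 3 called peaks of lowest p in each direction for p65, Fosl2 and H3K27ac. The members, the 7 gene lists (106 genes) and the tests were chosen with earlier results of these data known. Alternatives were TMM scaling, DESeq2 1.42.0, no filter, a replicate block, each library left out, other matching distances, pseudocounts, motif windows, distal peaks and bins of p65 strength. Sequences are from RefSeq's GRCm38 reference, where 91.8% of 6246 peaks within 1 kb of a start had the listed distance within 10 bp.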

Additional observations from a re-analysis of the deposited data

Results flagged for a closer look

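The change of H3K27ac with KLA at p65 peaks with Fosl2 had opposite signs in separate experiments. In WT (NCoR flox/flox) cells the median log2 fold change was 0.14, and the 4 Veh-KLA library pairs gave 0.06 to 0.22. In wild-type cells with DMSO it was -0.45 (-0.61 to -0.31), and in PGC1b flox/flox cells -0.41 (-0.40 to -0.38 over single pairs). All pairs of the first went one way and all pairs of the others the opposite way. The difference itself was not tested, because the tables count different regions and were scaled separately. Under TMM scaling the 3 medians were -0.00, -0.03 and 0.02.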

How the results depend on the processing

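Replicate numbers did not pair the libraries, and the fit with the replicate block moved 2 counts by over 1.5 times, Fosl2 (1320 calls) and ERKi (36). Calls at peaks with Fosl2 under TMM and DESeq2 were 7599 and 8223 for Fosl2 and 369 and 307 for LysMCre, with 3699 (TMM) for PGC1β with DMSO and 252 (DESeq2) for ERKi. A fit without 1 library takes a lone library to vary like the other group, and it gave 9868 to 16529 calls for p65, 0 to 10256 for Fosl2, 5238 to 9710 for NCoR, 2901 to 9009 for HDAC3, 3933 to 4022 for PU.1, 2803 to 7513 for PGC1β, 735 to 2333 for ERK1, 10647 to 11809 for p300, 620 to 1098 for H3K27ac in WT cells, 22 to 76 for NKO, 4336 to 4905 with DMSO, 3661 to 4537 for RGFP966, 3710 to 3740 in PGC1b flox/flox cells, 1282 to 1420 for LysMCre, 2942 to 4281 for PGC1β with DMSO and 0 to 19 for ERKi (0 without DMSO KLA replicate 1, with 2489 at an unadjusted p under 0.05 in edgeR).

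Differences of medians with 1 library left out were -0.40 to -0.32 for p65, 1.40 to 1.70 for Fosl2, -0.63 to -0.58 for NCoR, -0.61 to -0.53 for HDAC3, 0.0094 to 0.035 for PU.1, -0.0042 to 0.080 for PGC1β (reversed without KLA replicate 1), -0.062 to -0.0091 for ERK1, -0.83 to -0.77 for p300, -0.11 to -0.025 for H3K27ac, -0.069 to -0.0047 for NKO, 0.69 to 0.76 for RGFP966, -0.13 to -0.11 for LysMCre and -0.021 to 0.0055 for ERKi (reversed without DMSO KLA replicate 2). For distal peaks they were -0.71 for p65, -0.82 for NCoR, -0.80 for HDAC3, -0.43 for ERK1, -1.09 for p300, -0.021 for H3K27ac, -0.015 for NKO and -0.19 for LysMCre, and 4 reversed, PU.1 (-0.0052), PGC1β (-0.16), RGFP966 (-0.031) and ERKi (0.025). Averaged over bins they were -0.76 for NCoR, -0.74 for HDAC3, -0.48 for ERK1, -0.68 for p300, -0.18 for H3K27ac, -0.016 for NKO, 0.90 for RGFP966, -0.042 for LysMCre and -0.037 for ERKi, and PU.1 (-0.20) and PGC1β (-0.22) reversed. Log ratios with a pseudocount of 4 gave -0.20 for p65, -0.56 for NCoR and -0.62 for p300, a pseudocount of 1 gave 1.64 for Fosl2 and -0.63 for NCoR, and Fosl2 within 100 bp gave -0.57 for NCoR and -0.75 for p300. The cause of each reversal was not tested.

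The gap in co-binding, in percentage points within 500 bp, for distal peaks and averaged over bins, was 35.9, 40.0 and 21.2 for NCoR, 40.4, 45.3 and 21.8 for HDAC3, 45.3, 50.2 and 29.8 for PGC1β, 44.0, 49.0 and 23.1 for ERK1, 26.9, 27.2 and 18.2 for p300 and 38.5, 42.9 and 26.3 for PU.1, and within 100 bp 44.2 for ERK1 and 38.6 for PU.1. In 100-bp windows the gap between the classes was 8.83 for AP-1, 2.60 for PU.1, 0.48 for C/EBP and -0.090, reversed, for the cyclic AMP element. For distal peaks it was 3.12 for PU.1, 0.74 for C/EBP and -1.41 for paired GAAA.

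Of 752 values of named peaks under alternatives, 614 kept direction and side of the threshold and 14 reversed. Without KLA replicate 2 and without KLA replicate 1, the Fosl2 change was -0.21 and 1.24 at Il1b, -0.23 and 1.42 at Atf3, -0.41 and 0.91 at Junb, -0.54 and 0.73 at Abca1, -0.36 and 0.93 at Nr1h3, -0.52 and 0.96 at Lamp1, -0.90 and 0.12 at Dcstamp and -3.38 and 0.51 at Elovl5, of which the first reversed at the first 6 and the second at the last 2. Under TMM and DESeq2 p65 reversed at Fos (-0.55 and -0.52), Ctsk (-0.52 and -0.48) and Lamp1 (-0.56 and -0.52). The shallowest library, Fosl2 KLA replicate 1, held 4.30 M tags.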
